A study of Mus musculus with 50 samples.

Results

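The genes described here are 8 genes of the Schwann cell and its myelin, followed in the wound bed of the amputated mouse digit tip. They are Prx, Mbp, Pmp22 and Mag, which encode proteins of the myelin sheath or its outer membrane, the transcription factor gene Sox10, the calcium-binding protein gene S100b, and the receptor genes Ngfr and Erbb3. They were chosen as a fixed list by name. No measured value enters the rule, but earlier results of these data were known when the list was chosen. The list makes up 8 of the 21954 genes in the tables. RNA was measured by poly(A) RNA sequencing in 41 digits of male C57Bl/6 mice aged 9 to 10 weeks, in which the terminal phalanx (P3) of hindlimb digit 3 was amputated and the footpad dissected with it. The non-regenerative group held 29 digits with labelled amputation levels of 60% to 80%, taken at 0, 3, 6, 12 or 24 hours or after 3, 7, 14 or 21 days. In 2 digits of 0 hours, at 62%, and 2 of 12 hours, at 64%, as in some digits of other times, the level lies in the range that the study's methods give to the intermediate group. Groups follow the labels here. Each non-regenerative time had 3 digits, except that 7 days had 5. The intermediate group held 12 digits with levels of 41% to 55%, taken at 0 or 24 hours or after 14 or 21 days, again 3 for each. All digits were amputated, so the 0 hour digits are freshly cut tissue. Both hindlimbs of a mouse were operated on, so digits need not come from separate animals, and p-values measure the spread between digits. The tissue is a mixture of the cell types around the wound, and a lower level in it cannot tell fewer cells of a type from less RNA per cell.

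Schwann cells wrap the axons of peripheral nerves. A myelinating Schwann cell is set up by Sox10, is kept in contact with its axon by neuregulin binding to the Erbb3 and Erbb2 receptors, and makes large amounts of compact myelin protein, among them Pmp22 and Mbp, with Prx outside the compact myelin and Mag at the axon side. When an axon is cut, Schwann cells are known to lower myelin genes, raise the p75 neurotrophin receptor encoded by Ngfr, and enter a repair state driven by Jun. Several of the 8 genes are also known from other cells: Sox10 and S100b from melanocytes and from the secretory or myoepithelial cells of sweat glands, Erbb3 from epithelia, Pmp22 from fibroblasts, and a longer form of Mbp from blood cells.

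On GRCm38, as annotated in GENCODE, Prx lies on chromosome 7 at 27499324 to 27520214 and Mag on chromosome 7 at 30899176 to 30914873. S100b spans 76253853 to 76261159 and Erbb3 spans 128567523 to 128589652, both on chromosome 10. Pmp22 spans 63128982 to 63159547 and Ngfr spans 95568818 to 95587735, both on chromosome 11. Sox10 spans 79154908 to 79165240 on chromosome 15. Exons of S100b overlap the gene Dip2a on the opposite strand, and exons of Prx overlap the antisense gene Gm15541, so reads of these pairs may be shared where counting did not use strand, which the sources used here do not give.

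RefSeq start sites of build GRCm38.p6 were found for 5 of the 8 genes, with 10 windows in all. The 250 bases before the start are shown for the 3 genes that passed the test below, Prx, Pmp22 (the first of its 4 windows) and S100b, and for Mag, whose window holds the only kind of match found. The windows are chr7:27499074-27499323 for Prx, chr11:63128732-63128981 for Pmp22 and chr10:76253586-76253835 for S100b, all on the plus strand, and chr7:30914864-30915113 on the minus strand for Mag. Capitals mark a core of SOX factor sites, searched as ACAAAG or ACAATG on both strands, which 25.2% of all 32851 windows of this length hold.
Prx: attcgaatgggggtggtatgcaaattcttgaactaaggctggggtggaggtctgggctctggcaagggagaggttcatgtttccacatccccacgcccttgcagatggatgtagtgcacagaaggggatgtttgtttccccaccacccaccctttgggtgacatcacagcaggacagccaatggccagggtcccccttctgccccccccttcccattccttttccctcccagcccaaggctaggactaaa
Pmp22: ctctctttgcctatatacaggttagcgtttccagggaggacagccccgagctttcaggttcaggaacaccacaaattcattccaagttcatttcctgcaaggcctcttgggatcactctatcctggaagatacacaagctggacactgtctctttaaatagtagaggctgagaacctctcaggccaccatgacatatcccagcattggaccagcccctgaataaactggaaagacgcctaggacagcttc
S100b: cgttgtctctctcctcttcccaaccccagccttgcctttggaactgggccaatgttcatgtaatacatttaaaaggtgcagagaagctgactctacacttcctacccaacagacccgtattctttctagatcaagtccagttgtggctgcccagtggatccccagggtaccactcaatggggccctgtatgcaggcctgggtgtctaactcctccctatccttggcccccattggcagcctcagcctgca
Mag: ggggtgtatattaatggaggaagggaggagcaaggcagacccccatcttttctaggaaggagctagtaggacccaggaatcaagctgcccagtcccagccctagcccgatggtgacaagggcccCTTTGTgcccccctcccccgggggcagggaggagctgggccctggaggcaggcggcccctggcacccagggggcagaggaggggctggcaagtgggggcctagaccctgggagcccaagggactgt
The SOX letters stood once in each of 2 overlapping Mag windows and in none of the windows of Prx, Pmp22, S100b or Ngfr. The core of EGR factor sites, GTGGGCG on both strands, is held by 7.02% of all windows and stood in none of the 10. These are matches of letters only.

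Total expected counts per digit ran from 1468749 to 13011782 with a median of 6835347. Levels are given as CPM (counts scaled to library size, and between digits by the trimmed mean of M values), and a digit's count of 0 allows up to 3 counts. 2 non-regenerative digits stood apart: replicate 2 of 7 days, with 10072 genes detected, and replicate 2 of 14 days, with 13464 genes detected and a scaling factor of 0.651. Without them, 0 of the 7 members tested were called in the fits over several times or over amputation level, and without either one 0 were called at its own time. Correlations over digits are given without them where stated. Dates in the labels split the digits into 24 earlier and 17 later ones, and the 3 and 12 hour non-regenerative and 21 day intermediate digits are all earlier, while the 21 day non-regenerative digits are all later.

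Compared per transcript length, as the authors' normalized TPM, Pmp22 had the highest median over the 41 digits at 54.8, followed by Erbb3 at 28.8, Mbp at 18.4 and S100b at 15.5. The medians of the remaining genes were 3.28 for Sox10, 2.66 for Prx, 1.21 for Ngfr and 0.154 for Mag. The ranges of neighbours in this order overlap, for instance 18.5 to 123 for Pmp22 and 12.54 to 46.5 for Erbb3. Mag had no count in 20 of the 41 digits and at most 14 counts, and it was too low to test in every comparison, so 7 of the 8 genes were tested. Other genes of the Schwann cell ranged from absent to moderate. Gldn, which gathers channels at the node beside the myelin, had counts in all 41 digits with a median of 19.8 CPM, and Cdh19, a cadherin of the Schwann cell lineage, had counts in all but 2 digits with a median of 4.46 CPM. Gjb1, the connexin of myelin, had a median of 0 CPM with no count in 22 digits, Ugt8a, an enzyme of myelin lipid synthesis, had no count in 19, Pllp in 15 and Pmp2 in 13. The medians of Sox2, Foxd3 and Fabp7, genes of immature Schwann cells, were 0 CPM. These genes were named after their values were seen. Genes of oligodendrocytes, the myelin cells of the brain, were at or near 0, with a median of 0 CPM for Mog and for Mobp.

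**Figure D1:**
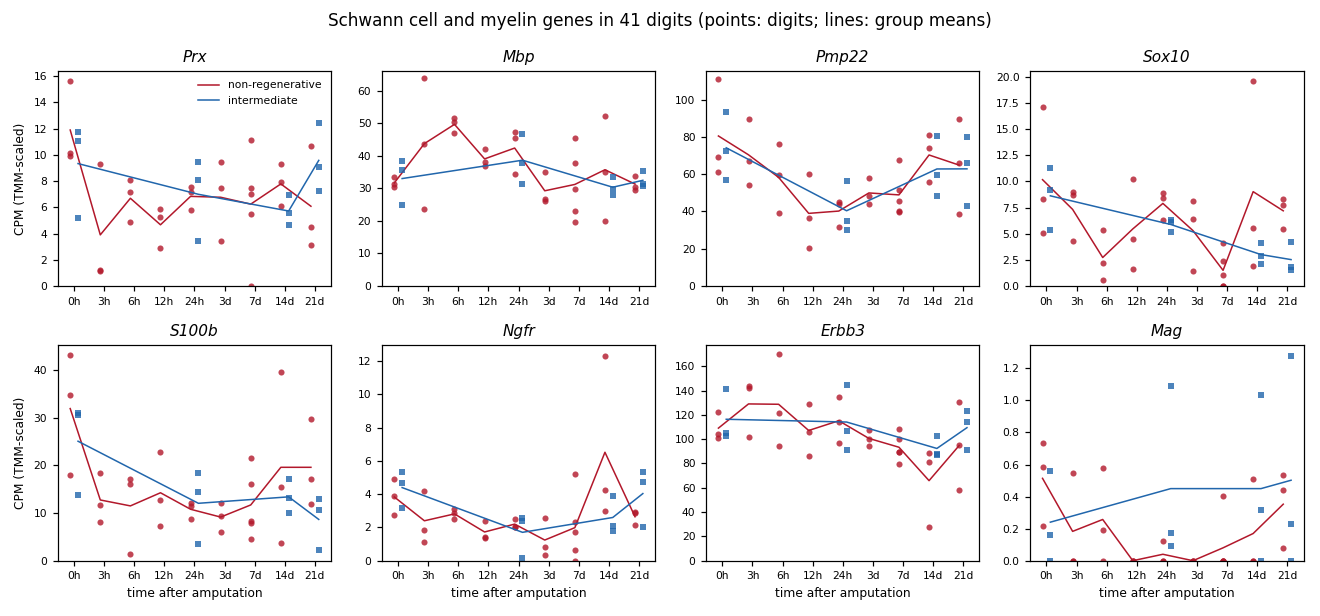
CPM (vertical axis, from 0) of the 8 genes in each digit by time after amputation, with circles for non-regenerative and squares for intermediate digits and lines through group means. Prx, Pmp22 and S100b are highest at 0 hours in the non-regenerative group and lower at 12 to 24 hours, Erbb3 lies at 58.3 to 170 CPM except for 27.6 CPM in 1 digit of 14 days, and Mag stays at or below 1.28 CPM.

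The first question is how these genes changed after non-regenerative amputation. Against 0 hours, a gene was called when its adjusted p was under 0.05 in the edgeR quasi-likelihood test, with Benjamini-Hochberg adjustment over all genes tested, and its mean normalized count plus 1 differed more than 2-fold. Of the 7 genes tested, 1 was called at 12 hours (Prx) and 2 at 24 hours (Pmp22 and S100b), all lower than at 0 hours. Over all genes, 11.4% were called at 12 hours and 4.64% were called lower, and 10.7% were called at 24 hours and 5.14% were called lower. At these times 6 and 5 of the 7 genes had a negative log2 fold change, with medians of -1.03 and -0.79 beside -0.03 and -0.04 over all genes. Groups did not overlap for 33.7% of all genes tested at 6 hours, 42.3% at 12 hours and 39.1% at 24 hours. On days 3 and 7 this held for 17.3% and 6.84%. The later digits all lay lower for 19.9% at 12 hours, 18.6% at 24 hours, 8.2% on day 3 and 3.92% on day 7.

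Prx encodes periaxin, which links the Schwann cell surface to its skeleton. Its level was 15.6, 9.89 and 10.2 CPM in the digits of 0 hours and 2.90, 5.24 and 5.86 CPM in those of 12 hours. Every 12 hour digit was below every 0 hour digit, and the log2 fold change was -1.33 ± 0.38 (SE, edgeR adjusted p = 0.0443, n = 3 and 3). At 24 hours it was 5.77, 7.19 and 7.55 CPM, again below all digits of 0 hours, with a log2 fold change of -0.79 ± 0.31 that did not pass (edgeR adjusted p = 0.113). The call at 12 hours was lost without any single digit of the 6, with adjusted p from 0.0792 to 0.0988 and log2 fold changes from -1.51 to -1.09. The earlier-dated digits alone, 3 of 12 hours and 1 of 0 hours, gave a log2 difference of -1.74.

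Pmp22 encodes a membrane protein of compact myelin whose gene is duplicated in a common inherited neuropathy. It was at 111, 61.3 and 69.2 CPM at 0 hours and at 31.7, 44.8 and 44.0 CPM at 24 hours. The groups did not overlap, and the log2 fold change was -1.001 ± 0.25 (SE, edgeR adjusted p = 0.0313, n = 3 and 3). At 12 hours its digits spread from 20.1 to 60.0 CPM, with a log2 fold change of -1.03 ± 0.38 and an edgeR adjusted p of 0.0934. This lies at the 2-fold limit. The call remained without replicate 2 of 0 hours and was lost without each of the other 5 digits, where the log2 fold change ran from -1.10 to -0.70 and the adjusted p from 0.0385 to 0.1123. Within the earlier-dated digits the log2 difference at 24 hours was -1.56 and within the later-dated ones -0.54.

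S100b encodes a calcium-binding protein long used to stain Schwann cells. It was at 34.8, 17.9 and 43.1 CPM at 0 hours and at 8.78, 12.1 and 11.5 CPM at 24 hours, and the groups did not overlap. The log2 fold change was -1.56 ± 0.33 (SE, edgeR adjusted p = 0.0170, n = 3 and 3). At 3 days it was at 9.32, 6 and 12.1 CPM, also below every 0 hour digit, and the log2 fold change of -1.81 ± 0.40 did not pass (edgeR adjusted p = 0.104). Without replicate 1 of 24 hours or replicate 3 of 0 hours the 24 hour call was lost, with adjusted p of 0.0759 and 0.0693, and the difference was -1.76 within the earlier-dated and -1.18 within the later-dated digits. In a fit of all 41 digits together, which shares the spread of the later time points, none of the 3 genes was called.

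Mbp, whose product compacts the inner face of the myelin membrane, did not share this direction in the first day when read as CPM. It was at 30.3, 31.2 and 33.3 CPM at 0 hours and at 51.6, 50.3 and 47.0 CPM at 6 hours, with no overlap. The log2 fold change of 0.64 ± 0.16 did not pass (edgeR adjusted p = 0.0541). At 24 hours it was at 47.1, 45.4 and 34.5 CPM, with a log2 fold change of 0.42 ± 0.18 (edgeR adjusted p = 0.149). The rise depends on the measure. In the authors' normalized TPM, Mbp was at 20.5, 17.3 and 22.5 at 0 hours and at 28.0, 21.1 and 20.7 at 6 hours, which overlap. Its mean TPM was 20.1 at 0 hours, 17.5 at 12 hours and 20.3 at 24 hours. From 3 to 21 days its digits ran from 19.7 to 52.3 CPM on both sides of the 0 hour values.

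Sox10, the factor that specifies the Schwann cell lineage and is needed for its myelin genes, was spread widely between digits of the same time. It was at 17.1, 5.09 and 8.31 CPM at 0 hours, at 0.579, 5.38 and 2.22 CPM at 6 hours, and at 8.90, 6.35 and 8.44 CPM at 24 hours. At 7 days it was at 4.07, 0, 1.1, 0 and 2.34 CPM, below every 0 hour digit. The log2 fold change at 6 hours was -1.90 ± 0.73 (edgeR adjusted p = 0.153), and at 7 days -2.76 ± 1.30 (edgeR adjusted p = 0.999), a fitted value that depends on the digits at 0.

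Ngfr, the p75 receptor that Schwann cells raise after nerve injury, was low throughout, with a median of 17 counts per digit. It was at 3.86, 4.90 and 2.73 CPM at 0 hours, at 1.45, 2.36 and 1.37 CPM at 12 hours and at 2.04, 2.04 and 2.52 CPM at 24 hours. No time point was called in either direction, and the highest digit, at 12.3 CPM, was replicate 2 of 14 days. The other 14 day digits were at 4.26 and 2.97 CPM.

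Erbb3, the neuregulin receptor, had the smallest spread of the 8 genes, with a coefficient of variation of 23.8% over the 41 digits. It was at 122, 101 and 104 CPM at 0 hours and at 134, 97.2 and 114 CPM at 24 hours. Its lowest digit, at 27.6 CPM, was again replicate 2 of 14 days, beside 88.9 and 81.1 CPM in the other digits of that time. Mag was at 0.736, 0.587 and 0.219 CPM (4, 6 and 2 counts) at 0 hours, and had 1 count in all in the 9 digits of 12 hours, 24 hours and 3 days, which lies within the limit that a count of 0 allows.

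None of the 7 genes was called against 0 hours at the other non-regenerative times. Over all genes 0% were called after 3 hours and 4.85% after 6 hours. The share was 0.723% on day 3, 0.0537% on day 7, 0% on day 14 and 0.452% on day 21. At an unadjusted p under 0.05, 1 of the 7 genes passed after 3 hours and 3 after 6 hours, 2 on day 3, 2 on day 7 and none later. The same limit passed 10.8% of all genes after 3 hours, 25.6% after 6 hours, 11.1% on day 3, 4.34% on day 7, 7.7% on day 14 and 7.2% on day 21. All 7 had a negative log2 fold change at 3, 7 and 21 days, with a median of -0.49 at 21 days, and the comparisons share the same 0 hour digits. The F-test over all 9 times called 7.62% of genes and none of the 7, with the smallest edgeR adjusted p for Pmp22 at 0.311.

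**Figure D2:**
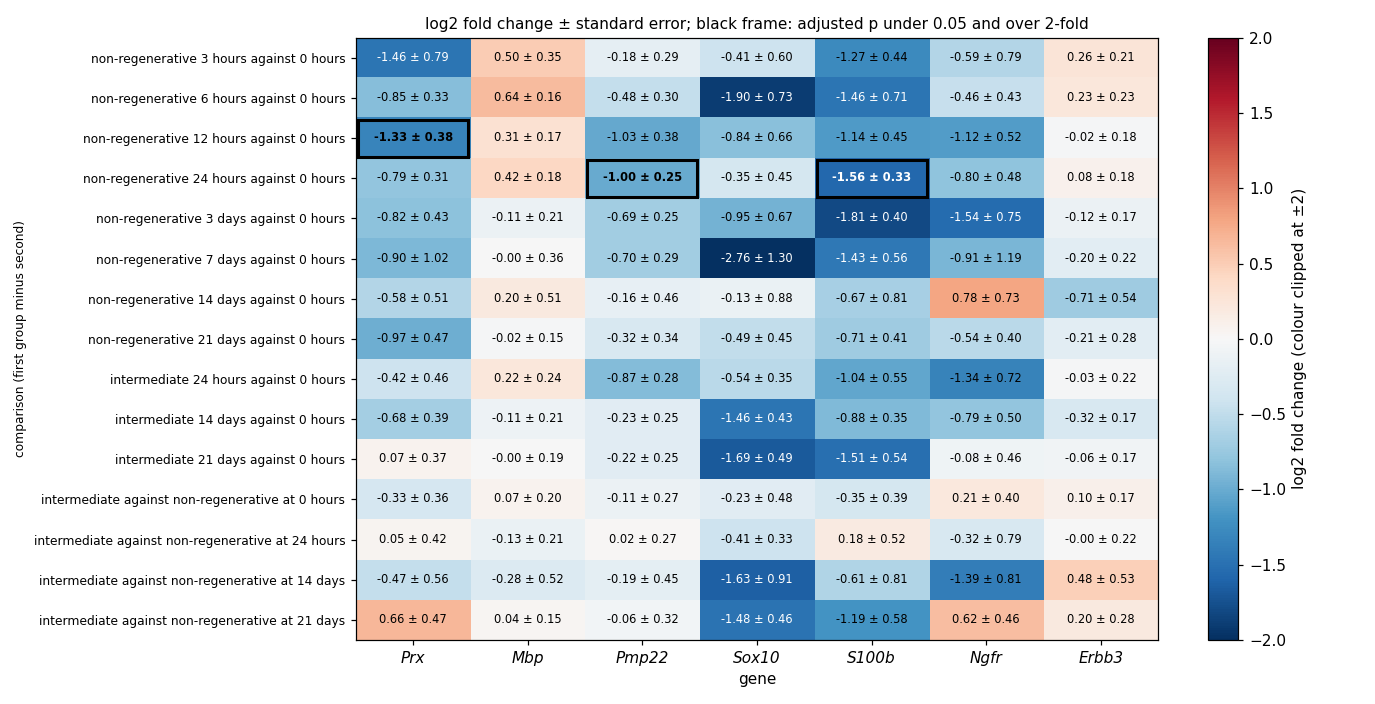
Log2 fold change ± SE of the 7 tested genes (columns) in the 15 comparisons between groups of digits (rows), coloured from blue (lower in the first group) to red (higher). The 3 framed cells, Prx at 12 hours and Pmp22 and S100b at 24 hours, are the only ones called by the 2-group edgeR fit.

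In intermediate digits none of the 7 genes was called against 0 hours. Over all genes 0.0152% were called after 24 hours, 1.68% on day 14 and 1.39% on day 21. At an unadjusted p under 0.05, 1, 2 and 2 of the 7 genes passed, beside 15.4%, 13.4% and 16.6% of all genes. The digits did not overlap with those of 0 hours for 23.3%, 20% and 22.4% of all genes, and all lay lower for 11.5%, 9.98% and 11.5%. Pmp22 was at 56.8, 72.2 and 93.3 CPM at 0 hours and at 29.9, 34.8 and 56.3 CPM at 24 hours, every digit below those of 0 hours, with a log2 fold change of -0.87 ± 0.28 (edgeR adjusted p = 0.218). Sox10 was at 5.40, 9.22 and 11.2 CPM at 0 hours, at 4.10, 2.85 and 2.07 CPM at 14 days and at 1.55, 4.20 and 1.82 CPM at 21 days. Both late groups lay below all digits of 0 hours, and the log2 fold changes were -1.46 ± 0.43 (edgeR adjusted p = 0.172) and -1.69 ± 0.49 (edgeR adjusted p = 0.13). S100b at 21 days was at 2.33, 13 and 10.7 CPM beside 13.7, 30.5 and 30.9 CPM at 0 hours, with a log2 fold change of -1.51 ± 0.54 (edgeR adjusted p = 0.201). Over the 4 intermediate times together the F-test called 6.21% of all genes, and Sox10 came closest of the 7 with an edgeR adjusted p of 0.0782.

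Intermediate and non-regenerative digits were compared at each shared time. None of the 7 genes was called. Over all genes the share called was 0% in each of the first 3 comparisons, 0 hours, 24 hours and 14 days, and 0.648% on day 21. Only Sox10 at 21 days passed an unadjusted p of 0.05, which 14% of all genes passed at that time. Its 3 intermediate digits, at 1.55, 4.20 and 1.82 CPM, were below the non-regenerative 7.78, 5.48 and 8.30 CPM, and the log2 difference was -1.48 ± 0.46 (edgeR adjusted p = 0.201). At 21 days 20.8% of all genes had groups without overlap, and 11.5% lay all lower in intermediate digits. The dates cannot be told apart from the groups there, since the intermediate digits are all earlier-dated and the non-regenerative ones all later-dated. Over the 4 shared times together Sox10 was lower in intermediate digits by a log2 difference of -0.91 ± 0.31, which passed unadjusted and not after adjustment (edgeR adjusted p = 0.787), in a fit that called 0% of genes. Without the 14 day digit that stood apart, the difference was -0.61 (edgeR adjusted p = 0.573). The test of a different time course between the groups also called 0% of genes, and its smallest adjusted p among the 7 was 0.723, for Ngfr. Per percentage point of labelled amputation level, Sox10 and S100b had log2 slopes of 0.04 ± 0.02 and 0.03 ± 0.01 (edgeR adjusted p = 0.574 and 0.533), and this fit, too, called 0% of genes. Without the 2 digits that stood apart the slopes were 0.02 and 0.03.

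The 7 tested genes were compared in pairs over the digits. Of the 21 pairs, 16 had a positive Pearson correlation of log2 CPM over the 41 digits, and 3 had one that passed adjustment over the pairs. The highest was between Sox10 and S100b, with r = 0.59 and rho = 0.62 (permutation p = 1e-04 and 2e-05 from 100000 permutations, adjusted 0.0021 and 0.00042). It was 0.71 without the 2 digits farthest from the median of Sox10, 0.72 within the earlier-dated and 0.51 within the later-dated digits. Prx and Ngfr had r = 0.56 and rho = 0.45 (permutation p = 0.00068 and 0.0032, adjusted 0.0071 and 0.023), with r = 0.29 without the 2 farthest digits, 0.30 within the earlier-dated and 0.83 within the later-dated digits. Pmp22 and Ngfr had r = 0.45 and rho = 0.46 (permutation p = 0.0033 and 0.0027, adjusted 0.023 and 0.023) and 0.45 without the 2 farthest. With Cdh19, Sox10 had r = -0.18 and S100b r = -0.04, and both had r = 0.12 without the 2 digits that stood apart.

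The genes most like Sox10 and S100b over the 41 digits were instead genes of secretory epithelium. By the largest Pearson r of log2 CPM, Sox10 was closest to Adora1, an adenosine receptor gene (0.92), and, of the next genes reported here, to Krt8, a keratin of simple and gland epithelium (0.89). S100b was closest to Fxyd2, a regulator of the sodium pump (0.84), to Cnn1, the calponin of smooth muscle and myoepithelial cells (0.81), and to Atp1b1, a sodium pump subunit (0.80). For these 5 genes r was 0.82 to 0.91 without the 2 digits that stood apart, and since the genes were picked for their r among all genes it carries no p. Gland genes added after seeing this gave Sox10 r = 0.79 with Krt18, 0.72 with Krt19 and 0.71 with Aqp5, the water channel of sweat and salivary glands, and 0.72, 0.82 and 0.57 without the 2 digits that stood apart. The lowest r of Sox10 among the genes added were 0.40 with Slc12a2 and 0.49 with Foxa1. Without the 2 digits they were 0.82 and 0.47, and Slc12a2 had r = -0.47 within the later-dated digits.

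Sox10 was highest at 19.6 CPM in replicate 2 of 14 days and at 17.1 CPM in replicate 1 of 0 hours, the digits with 117 and 65.1 CPM of Krt8 and with 0 and 11.8 CPM of Cdh19. The 3 lowest digits for Sox10, at 0, 0 and 0.579 CPM (replicates 2 and 4 of 7 days and replicate 1 of 6 hours), all had 0 CPM of Krt8. In the same 3 digits Cdh19 was at 12.9, 3.31 and 4.64 CPM. The digits with 19.6 CPM of Sox10 and with 12.9 CPM of Cdh19 are those that stood apart, and Cdh19 was named after its values were seen. At 24 hours, when S100b was called lower, Krt8 had a log2 fold change of -1.43 ± 0.44 (edgeR adjusted p = 0.0611). Atp1b1 and Cnn1 were called lower, with log2 fold changes of -1.79 ± 0.41 and -1.74 ± 0.47 (edgeR adjusted p = 0.0225 and 0.0379). Both were picked for their likeness to S100b over digits that include these, so their calls are not separate from that of S100b. At 21 days Krt8 was at 1.81, 18.0 and 10.9 CPM in intermediate and at 19.1, 15.8 and 35.5 CPM in non-regenerative digits, and the groups overlap. How much of the Sox10 and S100b signal comes from glands and how much from nerve was not tested.

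**Figure D3:**
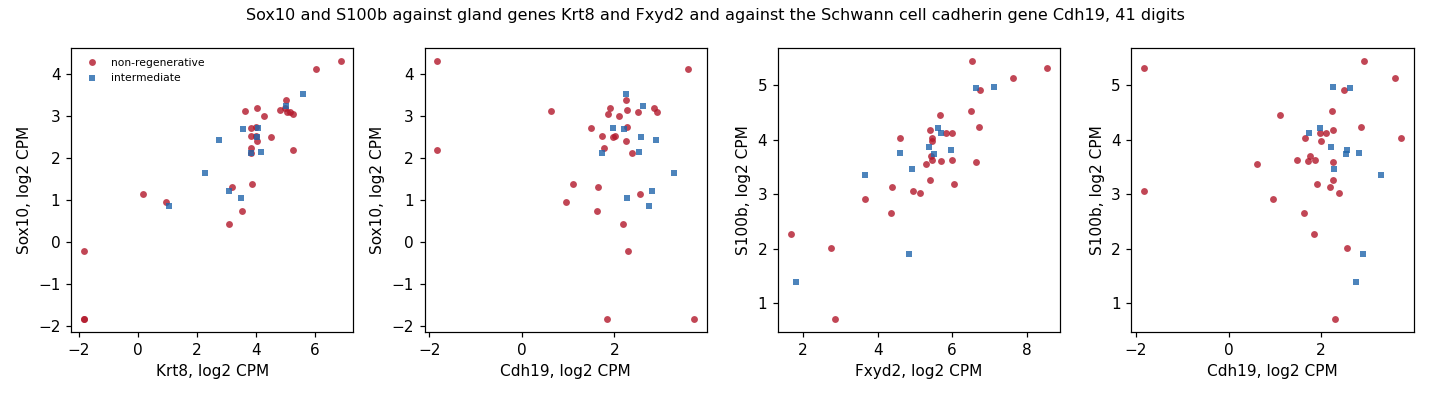
Log2 CPM of Sox10 against Krt8 and against Cdh19, and of S100b against Fxyd2 and against Cdh19, 1 point per digit (41 digits, circles non-regenerative, squares intermediate). Points lie along a rising band for Krt8 (r = 0.89) and Fxyd2 (r = 0.84) and scatter for Cdh19 (r = -0.18 and -0.04).

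The other members had other closest genes. Erbb3 was most like Grhl2, Ptpn3 and Tjp1 (r = 0.86, 0.83 and 0.82), of which Grhl2 is an epithelial transcription factor and Tjp1 a tight junction protein, and without the 2 digits that stood apart these r were 0.68, 0.63 and 0.57. Pmp22 was most like Olfml2a, Cd34 and Gdf10 (r = 0.74, 0.74 and 0.73), Cd34 being a surface protein of vessels and of dermal stroma, and these r were 0.77, 0.77 and 0.73 without the 2 digits. Mbp was most like Hip1r, Midn and Sdcbp2 (r = 0.77, 0.75 and 0.74, and 0.73, 0.71 and 0.67 without them). Prx was most like Cnnm3, Ccdc28b and D2hgdh (r = 0.83, 0.82 and 0.81) and Ngfr most like H2afv, Fam98c and Dcaf8 (r = 0.76, 0.75 and 0.75), and without the 2 digits that stood apart these r were 0.58 to 0.75. Mag is too low for a likeness to be read.

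Cultured bone marrow-derived macrophages, sequenced in the same series and scaled separately from the digits, gave levels outside the nerve. They came from female C57Bl/6 mice younger than those of the digits. M1 cells were treated with IFN-γ and LPS and M2 cells with IL-4, each for 24 hours. Resting (M0) macrophages had 55.1 ± 4.67 CPM of Mbp and 275 ± 10.7 CPM of Pmp22 (SD, n = 3). In the M1 and M2 states Mbp was at 35.1 ± 3.33 and 23.8 ± 1.96 CPM and Pmp22 at 61.6 ± 6.79 and 97.5 ± 2.76 CPM (SD, n = 3 each). Sox10 was at most 0.0619 CPM and S100b at most 0.818 CPM in any macrophage library. In digits, the summed level of 5 macrophage genes was 53.0 to 75.4 CPM at 0 hours, 40.8 to 77.5 CPM at 6 hours, 156 to 254 CPM at 12 hours and 63.5 to 253 CPM at 24 hours in the non-regenerative group. The part of blood cells in the Mbp and Pmp22 signal of digits was not tested.

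Among 14 other myelin genes, 8 were tested at 12 and at 24 hours in non-regenerative digits. At 12 hours 2 were called lower and 2 higher, and at 24 hours 3 were called lower and 2 higher. Cnp, an enzyme of non-compact myelin, was among those lower at 12 hours, from 8.91 to 21.3 CPM at 0 hours to 3.73 to 4.72 CPM (log2 fold change -1.59 ± 0.42, edgeR adjusted p = 0.0342). Fa2h, the enzyme that hydroxylates myelin lipids, fell by 3.94 ± 0.76 on the log2 scale at 24 hours (edgeR adjusted p = 0.0116). Mal, a raft protein of myelin and of epithelia, rose instead, from 28.9 to 44.3 CPM at 0 hours to 173 to 245 CPM at 24 hours, by 2.64 ± 0.23 (edgeR adjusted p = 0.000451). Cadm4, an adhesion molecule that faces the axon, was the other gene called higher at both times, with log2 fold changes of 1.19 ± 0.28 and 1.4 ± 0.27 (edgeR adjusted p = 0.0230 and 0.0115). Of the 6 fits that left out 1 digit, Cnp was called in none and Cadm4 in 2 at 12 hours, and at 24 hours Fa2h was called in 5, Cadm4 in 5 and Mal in all. Cnp was named after its values were seen. The median of the 8 was -0.85 at 12 hours and -0.94 at 24 hours, beside -0.03 and -0.04 over all genes. Over all genes 4.64% were called lower and 6.76% higher at 12 hours, and 5.14% and 5.57% at 24 hours.

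Of 12 genes of the repair Schwann cell, 2 of 9 tested were called higher at 6 hours, 4 of 8 at 12 hours and 5 of 9 at 24 hours, and none lower. Of all genes 3.23%, 6.76% and 5.57% were called higher at these times. Among the list's genes not called at these times, Shh had no count in 36 of the 41 digits. Over the digits Gfap, Olig1 and Gap43 had medians of 0.268, 0.481 and 1.90 CPM, and Ucn2, Bdnf and Btc had 3.39, 7.05 and 17.3 CPM. Artn, a ligand of the GDNF family, was higher by 4.27 ± 0.75 at 6 hours (edgeR adjusted p = 0.0206) and was called at 12 and 24 hours too. Its digits ran from 0 to 0.765 CPM at 0 hours and from 6.95 to 7.49 CPM at 6 hours. Lif, a cytokine of injured nerve and of many inflamed tissues, was higher by 4.14 ± 0.42 at 12 hours (edgeR adjusted p = 0.00110). Gdnf and Runx2, named after their values were seen, were called higher at 24 hours, with log2 fold changes of 1.57 ± 0.34 and 1.1 ± 0.29 (edgeR adjusted p = 0.0171 and 0.0387). Of the 6 fits that left out 1 digit, Artn was called in 3 at 6 hours, and at 24 hours Gdnf was called in 4 and Runx2 in 2. In the same digits the summed level of 6 neutrophil genes went from 13.9 to 20 CPM at 0 hours to 165 to 442 CPM at 12 hours and 342 to 496 CPM at 24 hours, and its part in the rise of these genes was not tested.

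Jun, the factor that drives the repair state, went the other way. It was at 261 to 511 CPM in freshly amputated non-regenerative digits and at 61.1 to 79.6 CPM at 24 hours, and was called lower at 6, 12 and 24 hours, with log2 fold changes of -1.44 ± 0.29, -1.95 ± 0.26 and -2.41 ± 0.27 (edgeR adjusted p = 0.0307, 0.00312 and 0.00148). The call at 6 hours was made in 2 of the 6 fits that left out 1 digit, and those at 12 and 24 hours in all. It is also an immediate early gene of many cell types. Of the 10 Schwann cell transcription factor genes, 7 were tested and Jun was the one called at these times. Egr2, the master factor of myelination, had a log2 fold change of 1.16 ± 0.38 at 12 hours (edgeR adjusted p = 0.0661).

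**Figure D4:**
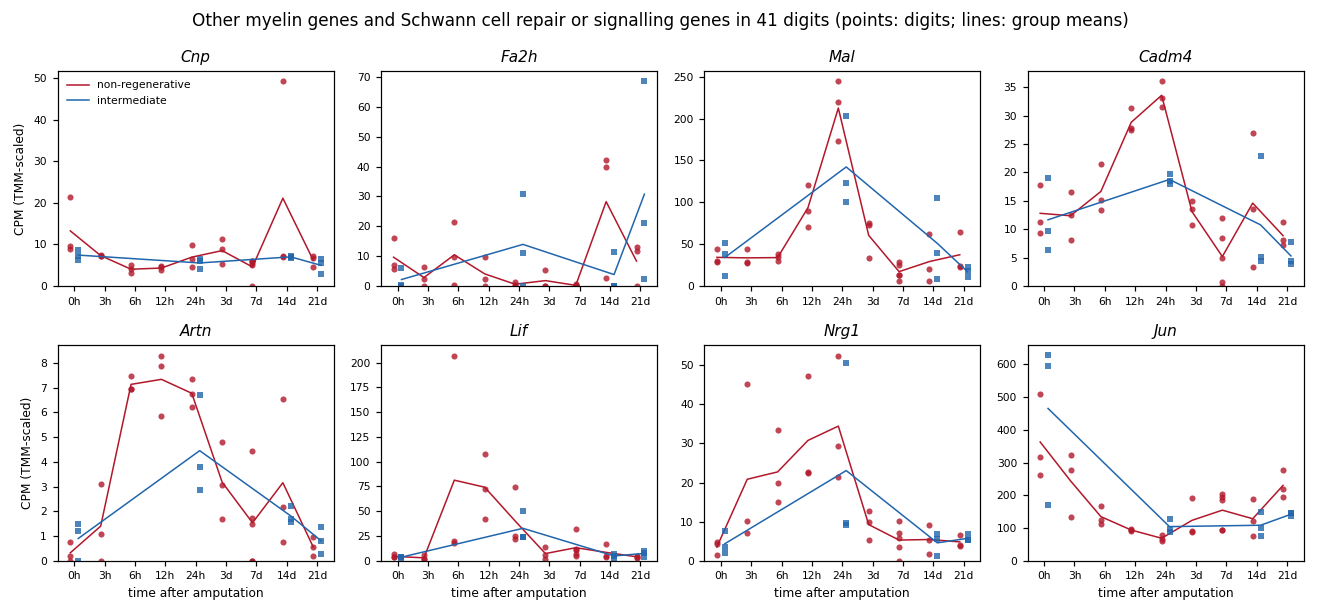
CPM (vertical axis, from 0) by time after amputation of the myelin genes Cnp, Fa2h, Mal and Cadm4 and of Artn, Lif, Nrg1 and Jun, with circles for non-regenerative and squares for intermediate digits and lines through group means. In the non-regenerative group the means of Cnp and Fa2h are lower at 12 and 24 hours than at 0 hours, the means of Mal, Artn, Lif and Nrg1 peak between 6 and 24 hours, and that of Jun is highest at 0 hours.

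Genes around the receptors of the list were read in the same way. Of 9 neuregulin and ErbB genes, 7 were tested, and Nrg1, the axonal ligand of Erbb3 that keratinocytes and fibroblasts can also make, rose from 1.42 to 4.90 CPM at 0 hours to 15.0 to 33.4 CPM at 6 hours (log2 fold change 2.67 ± 0.50, edgeR adjusted p = 0.0253), and by 3.29 ± 0.51 at 24 hours (edgeR adjusted p = 0.00486). Egfr was called higher at 6 and 12 hours. Leaving out 1 digit kept the call of Nrg1 in 2 of 6 fits at 6 hours and in all at 24 hours, and that of Egfr in 1 at 6 hours and 2 at 12 hours. Erbb2, the partner of Erbb3, had a log2 fold change of -0.29 ± 0.24 at 24 hours (edgeR adjusted p = 0.422). Among 13 neurotrophins and partners of p75, 1 was called at 6 hours and 2 at 12 and at 24 hours, all higher. The share of all genes called higher was 3.23%, 6.76% and 5.57%. Sorcs2, a sortilin-type receptor that pairs with p75, was among the list's calls at 12 and 24 hours (1.82 ± 0.43 and 1.66 ± 0.30, edgeR adjusted p = 0.0244 and 0.00946). Sorcs2 was also higher in intermediate digits at 14 and 21 days, by 2.20 ± 0.26 and 1.57 ± 0.28 (edgeR adjusted p = 0.00722 and 0.0270). Its calls were made in 3 and 6 of the 6 fits that left out 1 digit at 12 and 24 hours, and in 5 and 1 of those at 14 and 21 days.

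Of 9 genes of non-myelinating and immature Schwann cells, 6 were tested. Ncam1, a neural adhesion molecule, was called lower at 24 hours in non-regenerative digits (-1.96 ± 0.46, edgeR adjusted p = 0.0240) and higher at 14 days in intermediate ones (1.67 ± 0.30, edgeR adjusted p = 0.0310), calls made in 2 and 1 of the 6 fits that left out 1 digit. Cdh2, N-cadherin, which mesenchymal and bone-forming cells also carry, was called higher in intermediate digits at 14 and 21 days (2.51 ± 0.27 and 1.52 ± 0.26, edgeR adjusted p = 0.00494 and 0.0245), in 5 and 2 of such fits. At those times Col1a1, a collagen of fibroblasts and bone, was higher by 4.07 ± 0.47 and 3.63 ± 0.48 (edgeR adjusted p = 0.00652 and 0.00635). Of 12 axon genes only 2 or 3 passed the filter, and Stmn2, a growth-associated protein of neurons, was called lower at 6, 12 and 24 hours (-1.92 ± 0.21, -2.25 ± 0.40 and -1.82 ± 0.33, edgeR adjusted p = 0.00405, 0.00909 and 0.00902) and in intermediate digits at 14 days, where 2 of the 6 fits that left out 1 digit made the call. Tubb3, a tubulin of neurons and of some other cells, had a log2 fold change of 0.87 ± 0.22 at 12 hours (edgeR adjusted p = 0.0305), short of the 2-fold limit, and was called over the 9 times (edgeR adjusted p = 0.0194), where Stmn2 was not (edgeR adjusted p = 0.0559). The summed level of the 12 axon genes was 115 to 149 CPM at 0 hours, 111 to 139 CPM at 12 hours and 63.3 to 112 CPM at 24 hours. Most of an axon's RNA lies in cell bodies outside the digit.

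Lists of other cell types that share members' genes were read beside these. In non-regenerative digits 10 melanocyte genes summed to 43.4 to 139 CPM at 0 hours and 68.6 to 84.7 CPM at 24 hours. By medians over all digits, this sum was mostly Kit and Mitf, at 41.7 and 14.6 CPM. The medians of Pmel and Tyr were 0.719 and 0.368 CPM. Those of Dct, Tyrp1, Mlana, Slc24a5, Oca2 and Slc45a2 were 0 CPM. Of the 10 genes 2 or 3 passed the filter on low counts, and none was called in any comparison with 0 hours. None of 7 adipocyte genes was called against 0 hours either. The 9 chondrocyte genes, some of whose cells carry S100b, had 2 called higher in intermediate digits at 14 days, beside 1.49% of all genes. S100b had a log2 fold change of -0.88 ± 0.35 there (edgeR adjusted p = 0.324). Of 7 fibroblast genes, 1 was called lower at 12 hours and 3 at 24 hours in non-regenerative digits, beside 4.64% and 5.14% of all genes. Of 6 keratinocyte genes, 1 was called lower at 12 hours and 1 higher at 24 hours, when 5.57% of all genes were called higher. Of 6 skeletal muscle genes, 1 was called lower at 24 hours. Whether these cell types have a part in the members' changes was not tested.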

How the data were processed

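Wound-bed RNA of 41 digits and 9 macrophage libraries was sequenced as poly(A) single-end libraries. The authors aligned reads to Ensembl transcripts of GRCm38 with Bowtie, and deposited expected counts per gene, estimated with RSEM 1.2.3, which the submitters' processing notes name with CASAVA. The authors also deposited TPM scaled by median-by-ratio normalization, read here as a signal and used to order levels between genes.

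Expected counts were rounded. Each comparison was fitted with edgeR 4.0.16 (R 4.3.3) on its own groups, using filterByExpr, trimmed mean of M values scaling, quasi-likelihood tests and Benjamini-Hochberg adjustment over all genes tested. Fits were tested on simulated data. Standard errors are the log2 fold change over the square root of F, and log2 CPM has a prior count of 2. Alternatives were DESeq2 1.42.0, its size factors, 1 fit of all digits, a date term, no filter, no fold threshold, and leaving out each digit. Replicates differed by more than sampling noise in all 46 pairs (chi-square per degree of freedom 10.2 to 411). For 26 genes, names altered to dates were restored from the transcript lists. The named genes were the 8 members, the 3 genes most correlated with each, and up to 4 genes of each list with the smallest adjusted p over time in non-regenerative digits. Members and lists were chosen with earlier results of these data known, and the gland genes after seeing the data. Some genes that this rule names are not reported here.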

Additional observations from a re-analysis of the deposited data

Results flagged for a closer look

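Mag in replicate 3 of the non-regenerative digits of 7 days, at 0.402 CPM (3 counts), lay far from the other 4 digits of its group, which had no count. Where all other digits of a group have no count, any count is marked in this way, so no chance rate applies. In the cultured macrophages, whose libraries enter no comparison between digits, Prx was at 3.99 CPM and Erbb3 at 10.8 CPM in the M1 state. Mag was at 2.57 CPM in M1 and at 4.57 CPM in M2 macrophages, above its highest level of 1.28 CPM in any digit.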

How the results depend on the processing

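No paired analysis was possible because the labels of the digits give no replicate numbers that groups share. Some groups share dates, which entered fits as an earlier and a later period, and fits with this term called 0 of the 7 genes in any comparison. 1 intermediate and 1 non-regenerative digit of 14 days share mark, date and side in the labels, and their counts differed beyond sampling noise (chi-square 66.7 per degree of freedom). Non-regenerative replicates 1 of 0 hours and 3 of 12 hours share all of these too, as do replicates 3 of 3 days and 1 of 7 days. Intermediate replicates 2 and 3 of 0 hours share them with non-regenerative replicates 1 and 2 of 12 hours. Whether a shared mark means the same animal is not given. In each comparison such pairs are too few for a paired fit. The calls among the 8 genes depended on the fit, and none changed direction. In a fit of all 41 digits, with or without the date period, 0 genes were called at 12 and at 24 hours in non-regenerative digits. DESeq2's Wald test called 3 at 12 hours (Prx, Pmp22 and S100b), 1 at 24 hours (S100b), 1 at 3 days (S100b) and 2 in intermediate digits at 21 days (S100b and Sox10). Its likelihood ratio test called 1 gene over time in each group, Pmp22 in non-regenerative and Sox10 in intermediate digits. With no filter on low counts 1 gene was called at 24 hours (S100b). Leaving out 1 digit gave 0 to 2 called genes at 12 hours, 0 to 2 at 24 hours and 0 to 1 over time in intermediate digits, where Sox10 was called without replicate 2 of 21 days. The cause was not tested. Among 881 alternative values of 66 single-gene results, 710 kept their side of the threshold, 164 lost the call, 7 gained it and 0 reversed. Ngfr and Sox10 had medians of 17 and 34 counts per digit, and Mag of 1. Whether depth or the spread between digits limits these genes was not tested.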
